A study of Mus musculus with 6 samples.

Results

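Embryonic stem (ES) cells in which Ino80 was knocked down were compared with control ES cells by Hi-C, a chromosome conformation assay that ligates DNA fragments lying close together in the nucleus. The comparison uses 4 of the 6 libraries of the series, 2 labelled Ino80KD and 2 labelled control. All come from E14 mouse ES cells, a wild-type line of male origin grown in serum with leukemia inhibitory factor and used between passages 18 and 26. Control cells received 3.5 µg of esiRNA against EGFP, Ino80KD cells received 3.5 µg of esiRNA against Ino80, and all were harvested 48 h after transfection. An esiRNA is a pool of short interfering RNAs cut from a long double strand, so this is a transient knockdown in a transfected pool of cells and not a deletion. Hi-C gives no transcript level, and the strength of the knockdown was not measured here. Replicate 1 of each group belongs to batch 1 and replicate 2 to batch 2, and differences are given within batch. The labels do not say if replicates are separate cultures, so any p-value measures only the spread between these samples, which may be technical.

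Ino80 is the ATPase of the INO80 chromatin remodeller, a large complex that slides and spaces nucleosomes, acts on nucleosomes holding the histone variant H2A.Z and has been purified with the DNA-binding protein YY1. In ES cells it is known as a factor at active promoters and enhancers of pluripotency genes. Hi-C maps divide chromosomes into an A compartment, rich in genes and activity, and a B compartment, poor in both. Finer maps split each into subcompartments. Here each segment of a chromosome carries 1 of 8 labels, ordered from the most active, A.1.1, through A.1.2, A.2.1, A.2.2, B.1.1, B.1.2 and B.2.1 to the least active, B.2.2. A class below means 1 step in this order. The segments were read in 50 kb bins, and 47717 of 48009 bins (99.4%), covering 2385.85 Mb of the 19 autosomes of mm10, had a label in all 6 libraries.

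Ino80KD cells had less of the genome in A than control cells. In A lay 39.5% of bins in control replicate 1 and 39.7% in control replicate 2, against 38.5% in Ino80KD replicate 1 and 38.6% in Ino80KD replicate 2. The groups did not overlap. The difference was -1.05 percentage points, -1.06 in batch 1 and -1.04 in batch 2, while the controls had an SD of 0.0919 and the Ino80KD libraries an SD of 0.105. A 2-sided exact permutation test gave p = 0.333, the smallest value 2 against 2 libraries allow. In Brg1KD, the knockdown of another remodeller's ATPase in the same series, the share was 38.5% and 38.8%, and its difference from Ino80KD (-0.105 points for Ino80KD minus Brg1KD, exact permutation p = 1) was within the spread.

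Class by class, A.1.2, the upper middle of A, was smaller in Ino80KD, by -1.09 points in batch 1 and -0.622 in batch 2. A.1.2 held 10.5% and 10.1% of bins in the controls and 9.46% and 9.49% in Ino80KD. A.2.2, the lowest A class, was larger in Ino80KD, with 6.87% and 6.94% in control against 7.38% and 7.06%. These were the 2 classes of 8 whose libraries did not overlap between groups. A.2.1 (-0.945 and -0.639 points), B.1.1 (-0.482 and -0.662) and B.1.2 (-0.14 and -0.409) were also smaller in both batches, but their groups overlapped. A.1.1 moved little against its spread, with 13.4% and 15% in control and 13.9% and 15.1% in Ino80KD. The deepest class, B.2.2, held 21.3% and 22.8% of control bins and 22.1% and 25% of Ino80KD bins, so it was larger in both batches, by 0.857 and 2.18 points, but the groups overlapped. None of the 8 classes passed a threshold of 0.05 after adjustment over the classes (exact permutation, adjusted p = 0.667 for each).

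Segments were alike in number and median length. There were 5102 and 5234 segments in the controls and 5101 and 5173 in Ino80KD, with a median of 350 kb in every library of both groups. Runs of A labels, here called A domains, had a mean length of 1126 and 1103 kb in control and 1078 and 1067 kb in Ino80KD, which did not overlap (exact permutation p = 0.333). Their number was 840 and 862 in control and 856 and 868 in Ino80KD, which overlapped. B domains had mean lengths of 1711 and 1643 kb in control and 1686 and 1662 kb in Ino80KD, which overlapped as well.

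Many bins changed label in each batch, yet as many differed between replicates of 1 group. In batch 1, 15070 bins (31.6%) had another label in Ino80KD than in control, and in batch 2 the number was 13506 (28.3%). Between control replicate 2 and control replicate 1 it was 14861 (31.1%), and between the Ino80KD replicates 14536 (30.5%). What differed was the direction. Of the changed bins, 60.2% lay closer to B in Ino80KD in batch 1 and 63.8% in batch 2, against 52.5% for control replicate 2 over replicate 1 and 54.3% for the Ino80KD replicates. Most changes were by 1 class, 91.1% in batch 1 and 91.9% in batch 2. Bins that left A for B numbered 1170 in batch 1 and bins that entered A 665, and in batch 2 the numbers were 1007 and 511. Between the controls, the crossings were 867 and 929.

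Of the 5870 bins that changed in both batches, 3452 (58.8%) changed the same way, 2511 of them towards B and 941 towards A. The other 2418 changed in opposite ways. Because most changed bins lay closer to B in each batch, unrelated changes would also agree more often than not. That level was not computed. A stricter count took bins where both Ino80KD libraries lay below, or both above, both controls. It held 2984 bins (6.25% of those tested), 2146 towards B (4.5%) and 838 towards A (1.76%). The limma test of the label's rank across all 6 libraries called 1538 bins (3.22%) at a Benjamini-Hochberg adjusted p under 0.05, 1130 towards B and 408 towards A. Because 18941 bins had no spread within any group, this test calls mostly bins with identical labels within each group, and with 1 variance common to all bins it called 326, of which 27 were shared. The count without overlap is therefore used below, with no p for a single bin.

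The steps between labels were most lopsided in the middle of the order, around the border of A and B. Among the 24575 bins whose label was the same in both controls and the same in both Ino80KD libraries, 2468 (10%) differed between the groups, 1791 towards B and 677 towards A, and 2398 of them by 1 class. From A.2.1 to A.2.2 went 260 bins and 25 came back, a ratio of 10.4. From A.2.2 to B.1.1, the step that crosses the border, went 221 bins against 21, a ratio of 10.5. From B.1.1 to B.1.2 went 259 against 43, a ratio of 6.02. Over all bins, without the demand for equal labels within groups, the ratios in the 2 batches were lower, 2.71 and 2.81 for A.2.1 to A.2.2 and 2.07 and 2.44 for B.1.1 to B.1.2, against 1.01 and 1.33 between the controls. Both ends of the order were less one-sided.

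At the top, 118 bins went from A.1.1 to A.1.2 and 131 the other way, a ratio of 0.901. In the depth of B, 460 bins went from B.2.1 to B.2.2 and 225 came back, a ratio of 2.04, the largest step by number. Its ratios within the batches were 1.23 and 1.65, and 1.51 between the controls, so the replicates alone were as lopsided. Counted within a batch over all bins, the crossing step had ratios of 1.96 and 2.16, against 0.924 from control replicate 1 to replicate 2. The step from B.1.2 to B.2.1 had 1.73 and 2.08, but 2.2 between the controls, which is no smaller. Read by the class of origin, 12.4% of bins that were A.2.2 in both controls lay lower in Ino80KD and 1.5% higher. The shares lower were similar for A.2.1 (11.9%), B.1.1 (11.4%), B.1.2 (10.3%) and B.2.1 (9.24%). They were smaller for A.1.2 (5.89%) and A.1.1 (2.42%).

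**Figure D1:**
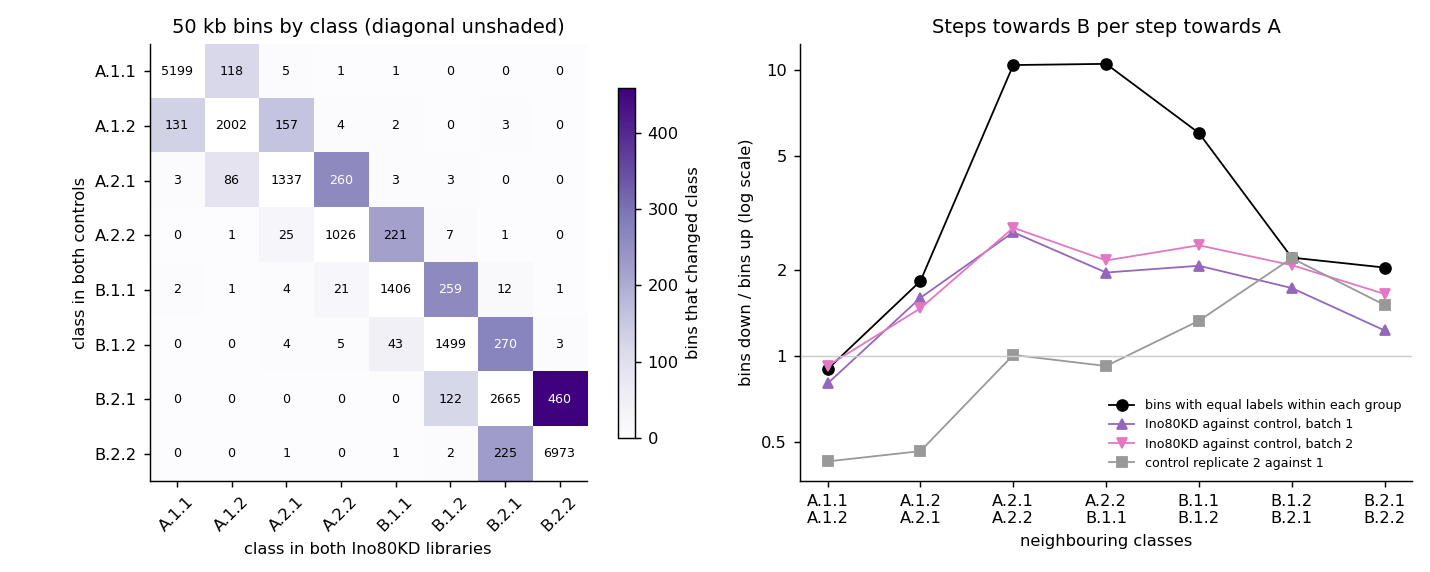
Left, number of 50 kb bins by their class in both controls (rows) and in both Ino80KD libraries (columns), for the 24575 bins with equal labels within each group; shading marks bins that changed class. Right, ratio of steps towards B to steps towards A for each pair of neighbouring classes, on a log axis, for those bins, for each batch and for control replicate 2 against 1; the ratios of 10.4 and 10.5 lie on both sides of A.2.2.

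Bins that crossed from A to B without overlap numbered 294 (0.616% of bins tested), in 80 regions of 14.7 Mb, and 77 (0.161%) crossed from B to A, in 39 regions of 3.85 Mb. Of the A to B bins, 221 (75.2%) went from A.2.2 in both controls to B.1.1 in both Ino80KD libraries, which is the shortest way across. limma called 144 of the 294 and 23 of the 77. It calls mostly bins with equal labels within each group, which were 82% of the A to B and 49.4% of the B to A bins. With the common variance it called 47 of the 294 and 47 of the 77, so these calls do not rank the directions. The regions that left A were short, with a median of 150 kb and a longest of 500 kb. By their place in the control domains, 43 lay at the edge of an A domain and 20 in its interior, but the interior regions held more bins, 126 against 110. Another 3 regions were a whole A domain, and for 14 the controls placed them differently. Of the B to A regions 30 were a single bin and 29 lay at an edge.

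The longest A to B region, of 500 kb, lay at chr13:14150001-14650000 at the edge of an A domain. It was A.2.2 in both controls and B.1.1 in both Ino80KD libraries. It holds 4 genes, among them Hecw1, a ubiquitin ligase, and Psma2, a proteasome subunit. The next, chr9:31450001-31900000, made the same change inside an A domain and holds Barx2, a homeobox gene. At chr11:67850001-68300000 lies Ntn1, the axon guidance ligand netrin-1, with Usp43, Cfap52 and Stx8. On chromosome 19, chr19:36350001-36800000 holds Pcgf5, a Polycomb subunit, with Hectd2 and Ppp1r3c. Both of these regions were A.2.2 in the controls and B.1.1 in Ino80KD. The region chr19:23200001-23650000 holds Smc5, a subunit of the SMC5/6 DNA repair complex, whose own bin went from A.1.2 and A.1.1 in the controls to B.1.1 in both Ino80KD libraries. The remaining leading regions hold Myo18b and Grk3 at chr5:112650001-113050000, Habp2 at chr19:55950001-56350000, Cops8 at chr1:90300001-90650000 and Slc34a2 and Sel1l3 at chr5:52900001-53250000.

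The region richest in genes among these, chr5:138200001-138600000, holds 9, and all of its 8 bins were A.2.2 in both controls and B.1.1 in both Ino80KD libraries. They include Lamtor4, of the lysosomal Ragulator complex, Gpc2, a glypican, and Stag3, a meiotic cohesin subunit. To show what kind of promoter changed side together here, RefSeq promoter windows (250 bases before to 50 after the start of transcription, GRCm38.p6, the assembly of mm10) are given 5′ to 3′, with the GC box GGGCGG, on either strand, in capitals. Lamtor4 (plus strand, chr5:138255232-138255531) has 40.3% G and C and 6 CpG dinucleotides. Gpc2 (minus strand, chr5:138279888-138280187) has 65.7% and 26, and Stag3 (plus strand, chr5:138280259-138280558) has 61.3% and 30.
Lamtor4: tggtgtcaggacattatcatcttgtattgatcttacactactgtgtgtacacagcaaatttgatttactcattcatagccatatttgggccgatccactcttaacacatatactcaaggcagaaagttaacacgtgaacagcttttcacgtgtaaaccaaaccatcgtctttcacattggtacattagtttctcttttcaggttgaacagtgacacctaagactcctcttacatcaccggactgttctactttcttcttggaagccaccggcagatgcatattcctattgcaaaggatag
Gpc2: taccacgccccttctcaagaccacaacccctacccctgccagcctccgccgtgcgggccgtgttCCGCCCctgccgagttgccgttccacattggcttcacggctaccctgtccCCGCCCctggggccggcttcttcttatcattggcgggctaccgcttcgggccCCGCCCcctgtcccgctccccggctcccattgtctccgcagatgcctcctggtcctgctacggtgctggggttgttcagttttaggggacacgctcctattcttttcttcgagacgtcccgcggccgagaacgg
Stag3: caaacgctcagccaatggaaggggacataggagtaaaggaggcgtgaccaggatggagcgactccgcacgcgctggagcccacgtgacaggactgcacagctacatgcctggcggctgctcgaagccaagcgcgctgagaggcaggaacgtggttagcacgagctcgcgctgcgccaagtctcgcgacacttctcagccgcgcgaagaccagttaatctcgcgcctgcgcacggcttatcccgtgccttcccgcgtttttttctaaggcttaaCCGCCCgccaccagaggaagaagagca
The windows range from a CpG-poor promoter without a GC box to a CpG-rich pair transcribed away from each other, so genes of both kinds sat in the bins that changed.

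Because YY1 binds with INO80, the motif AAGATGGCG, the core of its known site, was searched on both strands of the promoter windows. It was present in 315 of 16308 windows of placed genes (1.93%) and in 4 of the 63 windows known for genes in A to B crossings. A window was known for 75% of the 84 genes of those crossings and for 80% of all placed genes. With only 4 matches, and the window of Exoc4 outside the bins that changed, no comparison of shares is drawn. The 4 are shown with the core in capitals, which reads CGCCATCTT where it lies on the other strand. Counted from the start of transcription as base 1, the core begins at base -231 in Apip (chr2:103073425-103073487, plus strand), at base 20 of Zfp157 (chr5:138441459-138441525, plus strand), at base 23 of Exoc4 (chr6:33249114-33249177, plus strand) and at base 10 of Etaa1 (chr11:17953826-17953902, minus strand).
Apip: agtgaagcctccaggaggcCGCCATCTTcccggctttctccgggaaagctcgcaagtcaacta
Zfp157: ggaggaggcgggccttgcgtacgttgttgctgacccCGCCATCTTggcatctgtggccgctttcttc
Exoc4: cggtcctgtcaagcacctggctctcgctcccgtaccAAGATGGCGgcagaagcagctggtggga
Etaa1: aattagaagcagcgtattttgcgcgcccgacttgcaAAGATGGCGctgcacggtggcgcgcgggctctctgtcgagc
The bins that hold the windows of Apip, Zfp157 and Etaa1 were A.2.2 in both controls and B.1.1 in both Ino80KD libraries. The window of Exoc4, a long gene, lies outside the bins that changed and was B.1.1 in all 4 libraries, and the crossing bins lie further inside the gene. Apip is an enzyme of methionine salvage, Exoc4 a subunit of the exocyst and Etaa1 an activator of the ATR kinase at stalled forks. A match is a description of letters and shows no binding.

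In the other direction the longest region, chr4:41800001-42850000, was B.1.1 in both controls, A.1.1 in Ino80KD replicate 1 and A.2.2 in Ino80KD replicate 2. Its 16 genes include several Ccl21, Ccl27 and Fam205 genes known to have near-identical copies there, so values where reads may match several copies are uncertain; identity over the region was not measured. It makes up 21 of the 77 B to A bins. Without it 56 remain, and the B to A genes fall from 43 to 27. The other leading regions hold Slc4a7, a bicarbonate transporter, at chr14:14600001-14850000, Marchf3 at chr18:56750001-57000000, Lcn4 at chr2:26650001-26850000, Zdhhc21 and Cer1 at chr4:82750001-82900000, and Retreg1 and Zfp622 at chr15:25850001-26000000. The last went 3 classes up, from B.1.2 in both controls to A.2.1 in both Ino80KD libraries, and the others from B.1.1 to A.2.2, with part of the Slc4a7 region in B.1.2 in the controls.

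**Figure D2:**
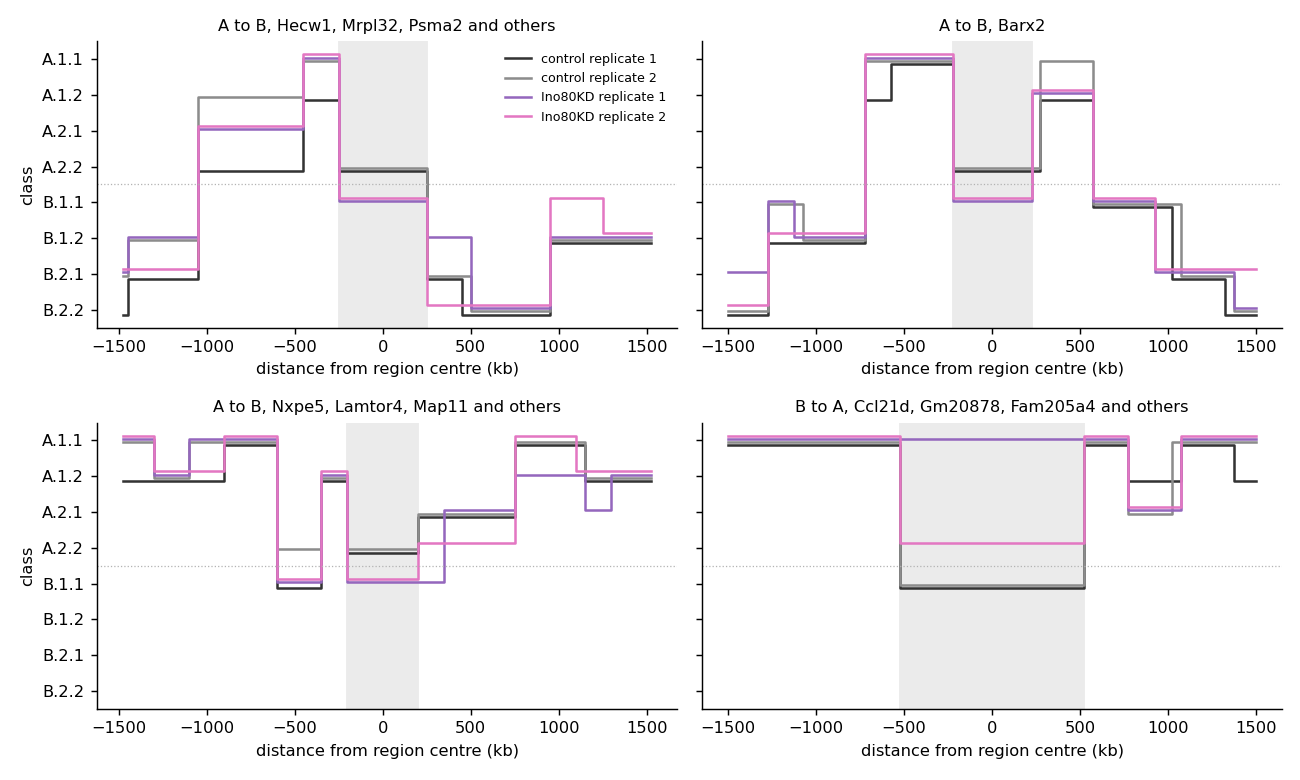
Class of each 50 kb bin in the 4 libraries within 1500 kb of the centre of 3 A to B regions and of the leading B to A region (grey band), with the lines of the libraries drawn slightly apart. In the 3 A to B regions both controls sit at A.2.2 and both Ino80KD libraries at B.1.1, while the copy-rich B to A region differs between the Ino80KD replicates.

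Of the 20375 protein-coding genes whose midpoint lay in a bin, 582 (2.86%) were in bins that moved towards B and 401 (1.97%) in bins that moved towards A. A to B crossings held 84 genes (0.412%) and B to A crossings 43 (0.211%). Bins that moved towards B were poor in genes, with 5.42 genes per Mb against 8.54 over all bins, and 263 of their 501 regions held no gene midpoint. Bins that moved towards A held 9.57 genes per Mb. This held within each class of origin as well. Among bins of A.1.1 in both controls there were 24.3 genes per Mb, and 10.9 in those that moved towards B. For A.2.2 the values were 8.14 for the class, 5.5 for its bins towards B and 9.66 for its bins towards A. For B.1.1 they were 6.31, 4.16 and 12, but 21 of its 55 bins towards A are the copy-rich chromosome 4 region with 16 genes. The bins towards B lay below their class in all 7 classes that could move down, and the bins towards A above it in all 7 that could move up. Some of these gaps were small. For B.2.1 bins towards B it was 3.22 against 3.45, and for A.2.1 bins towards A 9.67 against 9.17.

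**Figure D3:**
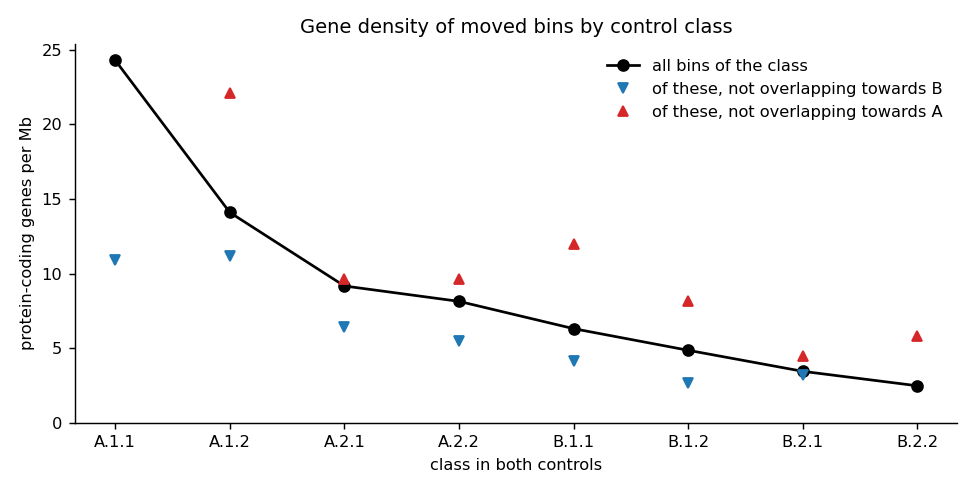
Protein-coding genes per Mb in all bins with 1 class in both controls (black), and in those of them that moved towards B or A without overlap between groups. At A.1.1 the class has 24.3 genes per Mb and its bins towards B 10.9; in every class blue lies below and red above the black line.

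Large moves were rare and mostly narrow. A shift of 2 or more classes was seen in 223 of the 2984 bins, 138 towards B and 85 towards A. They formed 142 runs, of which 112 were a single bin and the longest, of 1050 kb, was the copy-rich region on chromosome 4. Of these 223, 155 (69.5%) touched a segment border in a control, against 28.5% of all bins. The 223 bins held 99 genes, 48 towards B and 51 towards A, which lay in 75 of these bins. Of the 51, 16 are the genes of the copy-rich region on chromosome 4. Frg1, an RNA-processing gene, went from B.2.1 in both controls to A.1.2 and A.1.1 in the Ino80KD libraries, 5.5 classes on average. Dusp23, a phosphatase, and its neighbour Fcrl6 went from A.1.2 in both controls to B.2.1 in both Ino80KD libraries. Krt17 and Krt42, keratins of epithelia, went from A.1.1 in both controls to B.1.1 and B.1.2, as did Ang4, a secreted ribonuclease.

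Spata19, a gene of sperm mitochondria, went from B.2.2 in both controls to A.2.1 in both Ino80KD libraries, 5 classes. Mrps33, a mitochondrial ribosomal protein, went from B.1.1 to A.1.1, also alike in both replicates. Ces4a, a carboxylesterase, went from A.1.1 in both controls to B.1.2 and B.1.1. Klhl3, a ubiquitin ligase adaptor, went from A.2.1 and A.1.1 to B.1.2. Ighmbp2, a helicase, and Mrpl21 share a bin that went from A.2.2 and B.1.1 to A.1.1. In 100 kb bins, which take the lower label of their 50 kb bins, Frg1, Dusp23, Fcrl6, Ighmbp2 and Mrpl21 had the opposite direction, with shifts of -0.5, 1, 1, -1.5 and -1.5 classes, and Ang4, Krt17, Krt42 and Mrps33 were at 0.

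Ino80 itself and most pluripotency genes had the same labels or overlapped between groups. Ino80 was labelled A.1.1 in each of the 4 libraries. Pou5f1 and Nanog, core pluripotency factors, were A.1.1 throughout as well, and all 28 genes of the pluripotency list were in A in every library of both groups. None of the 28 moved towards B, and 3 (10.7%), in 3 bins, moved towards A, against 1.97% of all placed genes. These were Lefty1, Lefty2 and Nr5a2, which went from A.1.2 in both controls to A.1.1 in both Ino80KD libraries. Of all bins that were A.1.2 in both controls, 3.98% moved towards A. Segments had a median of 350 kb, so the 3 bins need not be separate places. The Lefty genes encode Nodal antagonists and Nr5a2 a nuclear receptor that activates Pou5f1. Sox2 was in A.1.1 in both controls and in A.1.2 and A.1.1 in Ino80KD, which overlaps. Among the remodelling machinery no gene moved in either direction, with 0 of 15 INO80 subunits, 0 of 10 genes of H2A.Z and its other remodellers, 0 of 16 BAF subunits, 0 of 14 architecture genes such as cohesin and 0 of 16 Polycomb subunits. With 2.86% and 1.97% of all genes called, counts of 0 in lists this short are close to the background.

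Lineage genes moved singly, and counts of 0 to 2 in lists this short are near the shares of all placed genes, 2.86% towards B and 1.97% towards A. The same holds for the Wnt, repair, ribosomal and collagen lists after them. In the primitive endoderm list 1 of 13 moved, Pdgfra, a growth factor receptor of that lineage, from B.1.2 and B.1.1 in the controls to A.2.1 in both Ino80KD libraries. Its neighbour on chromosome 5, the neural homeobox gene Gsx2, went the other way, from A.1.2 in both controls to A.2.1 in both Ino80KD libraries, so both ended in 1 class. Of 14 mesendoderm genes, Evx1, at the end of the Hoxa cluster, went from A.1.1 in both controls to A.2.1 and A.2.2, and Cer1, a secreted antagonist of Nodal, from B.1.1 to A.2.2. Of 15 neuroectoderm genes, Gsx2 moved and Sox1, which went from A.2.1 in both controls to A.1.1 in both Ino80KD libraries. In 100 kb bins Sox1 had a shift of -1, the opposite direction, and Evx1 one of -0.5 that overlapped. No member moved among 11 trophectoderm genes, 9 genes of the 2-cell-like state and 12 fibroblast genes.

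In the Wnt list 2 of 27 moved, both towards B. Tcf7l2, the transcription factor at the end of the pathway, went from A.1.2 in both controls to A.2.2 and A.2.1, and Fzd10, a receptor, from A.2.1 to A.2.2. In 100 kb bins the shift of Tcf7l2 was -0.5 and overlapped. In DNA replication and repair, Xrcc5, which encodes Ku80 of end joining, went from A.1.1 to A.1.2, and Rad18, a ligase of lesion bypass, from A.2.1 to A.1.2, 2 of 21. Of 75 ribosomal protein genes, Rpl7 crossed from A.2.2 to B.1.1 and Rpl32l went from A.1.2 to A.1.1. The crossing of Rpl7 ended in 100 kb bins, with a shift of -0.5. Of 42 collagen genes, Col6a3 went from B.1.1 to B.1.2 and Col24a1 from B.1.2 to B.1.1.

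Histone genes are the list with the highest share towards B, with 15 of 67 (22.4%) against 2.86% of all placed genes, and none towards A. They lie in only 4 bins of the 17 that hold the list, so they count as few places. H1f1, H1f2, H1f4 and H1f6, linker histones of the cluster on chromosome 13, went from A.1.2 in both controls to A.2.1 in both Ino80KD libraries. Every member of the list was in A in every library. No gene of the Hox clusters (39 in 13 bins) or of the protocadherin clusters (57 in 11 bins) moved, which is close to the background for so few bins. Clustered receptor genes moved in both directions, beside 2.86% of all placed genes towards B and 1.97% towards A. Of 1097 olfactory receptors, 39 moved towards B (3.56%) in 20 bins and 50 towards A (4.56%) in 31 bins. Of 333 vomeronasal receptors, 6 moved towards B (1.8%) and 22 towards A (6.61%, in 14 bins). Most receptor genes began in B. In the controls 8.66% and 8.02% of the olfactory and 6.31% and 6.61% of the vomeronasal receptors lay in A, against 71.8% and 72% of all placed genes. Olfr1339 to Olfr1342 lie side by side on chromosome 4, and Olfr1339 went from A.2.1 and A.2.2 in the controls to A.1.1 in both Ino80KD libraries, which turned to -0.5 classes in 100 kb bins. Vmn2r100 went from B.1.2 and B.2.1 to B.2.2 in both. Of 349 Zfp genes, 5 moved towards B (1.43%) and 6 towards A (1.72%), among them Zfp54 from B.1.2 to A.2.2 in both replicates. Of 91 potassium channel genes, 4 (4.4%) and 2 (2.2%) did, among them Kcnk1 from A.2.2 to B.1.1. Of 104 keratins, 2 moved each way (1.92%), in 1 bin each. With counts this small, the Zfp, channel and keratin shares are near those of all placed genes. The median shift was 0 in each of these lists, as over all placed genes.

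The chromosomes did not share the move equally. On 18 of 19, more bins moved towards B than towards A. The mean shift was below 0 in both batches on 14 and of opposite sign in the batches on 3. It was above 0 in both on 1, chromosome 2, with 0.00426 and 0.0182 classes. On chromosome 5, 362 bins moved towards B (12.4%) and 24 towards A (0.822%), and on chromosome 19, 131 (11.3%) and 3 (0.258%). In A lay 42.8% and 43.5% of chromosome 5 in the controls and 39.4% and 39.5% in Ino80KD. For chromosome 19 the values were 48.5% and 47.7% against 41.8% and 44.6%. These chromosomes held 61 and 27 of the 294 A to B bins. By the count of moved bins chromosome 4 was the exception, with 81 towards B and 110 towards A, and 29 of the 77 B to A bins. Its copy-rich region holds 21 of these 29, and without that region 81 bins moved towards B and 89 towards A, with 8 B to A bins. The mean shift of chromosome 4 had opposite signs in the batches, 0.0825 and -0.0426 classes. Without chromosomes 5 and 19, the A share difference was -0.768 points and 67.1% of bins without overlap moved towards B, against -1.05 and 71.9% with them. On 8 chromosomes the A share of both Ino80KD libraries lay below both controls, and on 0 above.

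**Figure D4:**
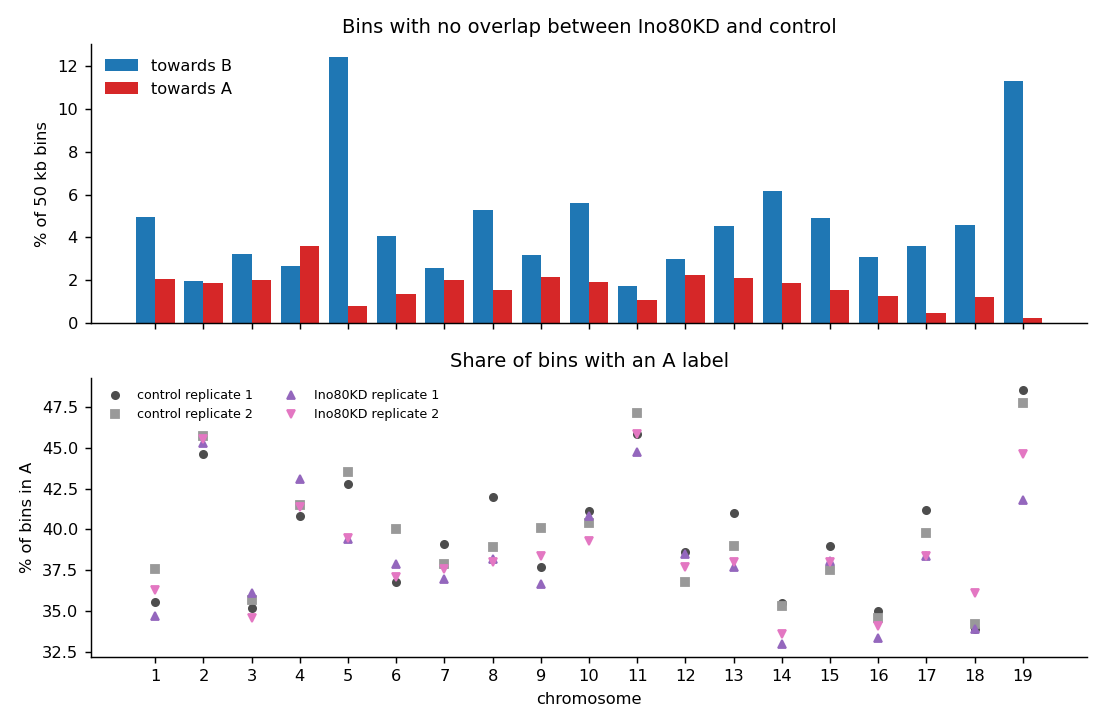
Top, percentage of the 50 kb bins of each autosome that moved towards B or towards A without overlap between groups. Bottom, percentage of bins with an A label in each of the 4 libraries; chromosomes 5 and 19 have the tallest bars towards B, 12.4% and 11.3%, and a lower A share in both Ino80KD libraries.

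Loops are pairs of points that touch more often than their distance implies, often at CTCF sites or between promoters and enhancers. The lists, at 10 kb resolution, hold 5903 loops for control and 5475 for Ino80KD, 7.25% fewer. They are named as merged and were treated as 1 pooled list for each group, with no score and no replicate check, so no test is possible. Fewer loops were listed on 19 of 20 chromosomes, and the X chromosome had 145 in each list. The number of reads behind the lists is unknown here, and its part in the number of loops was not tested. Of the control loops, 4435 (75.1%, 95% Wilson interval 74 to 76.2) had a partner in Ino80KD with both anchors within 10 kb, which is 81% of the Ino80KD loops. With identical anchors it was 46.4% and 50%, and within 20 kb 77.5% and 83.6%. These intervals cover counting error only.

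Loops without a partner were longer. The median was 250 kb in each list, 240 kb for loops in both, 290 kb for loops in the control list only and 280 kb for those in the Ino80KD list only. Of control loops of 100 to 200 kb, 80.1% had a partner, and of those over 800 kb 63.6%. Anchors were placed by the mean of the ranks of their labels in the 2 controls. By compartment, 78.9% of control loops with both anchors in A had a partner, 73.2% of those joining A and B, and 68.8% of those with both anchors in B. The lowest share, 59.2% (50.4 to 67.4) of 125, was for loops within B.2.2. Loops at moved bins were counted as well. Of the 443 control loops with an anchor in a bin that moved towards B, 74.3% (70 to 78.1) had a partner, against 75.5% of all loops with both anchors labelled. For the 82 with an anchor in an A to B crossing it was 80.5% (70.6 to 87.6), and for the 25 with an anchor in a B to A crossing 68% (48.4 to 82.8). Of Ino80KD loops with an anchor in a bin that moved towards A, 75.6% (68.7 to 81.3) had a partner in control, against 81.6% (80.5 to 82.6) of all labelled ones. For bins that moved towards B it was 84.6% (80.7 to 87.8). Gene ends were present at both anchors of 390 control loops (6.61%) and 410 Ino80KD loops (7.49%).

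**Figure D5:**
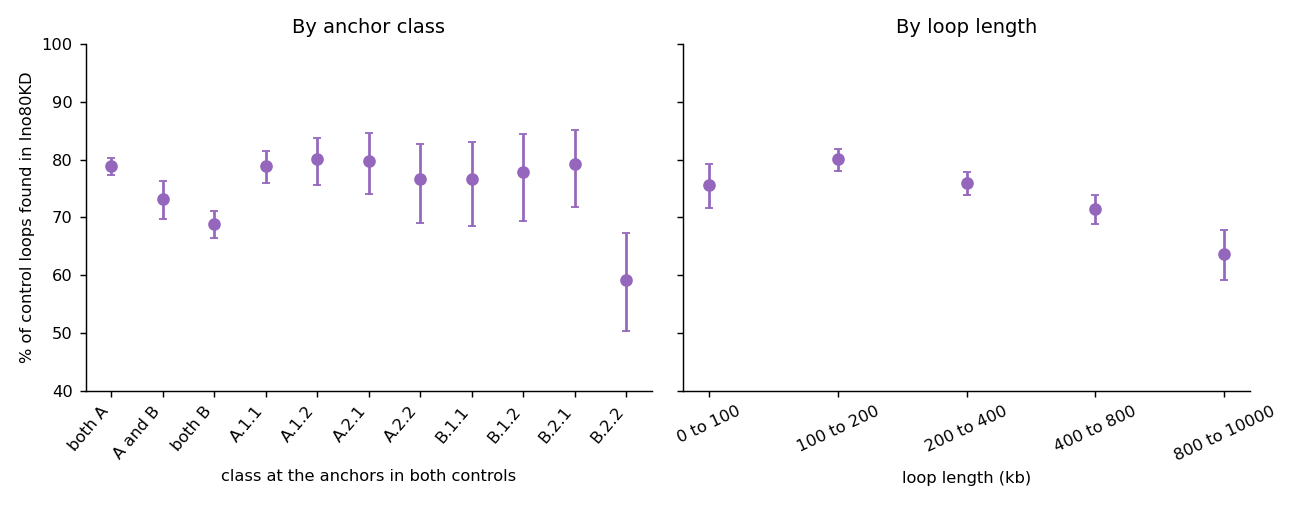
Percentage of control loops with a partner in the Ino80KD list (both anchors within 10 kb), with 95% Wilson intervals, by anchor and by loop length. The compartment or class of an anchor is that of its mean rank over the 2 controls. The share is 59.2% within B.2.2 and 63.6% for loops over 800 kb, the lowest in each panel; the vertical axis starts at 40%.

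Among loops at genes of the lists, the Sox2 loop of 100 kb, from the gene to its downstream side, was in both lists. At genes of the INO80 complex, a loop of 1330 kb from Actl6a, an actin-related subunit shared with BAF, to Dnajc19 was in the control list only, while a loop of 1080 kb from Actl6a was in both. A loop of 500 kb between Actr8, another actin-related subunit, and Cacna1d was in the Ino80KD list only. Of loops at Hox genes, 14 of the 18 in the control list and 14 of the 15 in the Ino80KD list had a partner, against 75.1% and 81% of all loops.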

How the data were processed

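Segments labelled with a subcompartment, each with a rank from the deposited files (a score of order only, 1 for B.2.2 to 8 for A.1.1), and loop lists were used as the authors deposited them, in mm10. The submitters' processing notes name BWA, SAMtools, Juicer 2.0, HOMER and bedtools without their roles, and the callers of subcompartments and loops were not given in the sources used here. Coordinates of loop anchors are the authors' values and carry no score. Numbers of reads were not given, so depth is unknown and limits every value to an unknown degree.

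Segments were cut into 50 kb bins by the label over each bin. A bin moved where both Ino80KD libraries lay on 1 side of both controls, and crossed where both controls were in 1 compartment and both Ino80KD libraries in the other. Ranks were tested with limma 3.58.1 in R 4.3.3 over all 6 libraries with Benjamini-Hochberg adjustment, and shares with 2-sided exact permutation tests over libraries. Replicate numbers were taken as pairs because the labels name the batch; same-numbered libraries deviated together with r = 0.102 over bins. No 2 libraries were identical. Genes were placed by midpoint from RefSeq (GRCm38.p6), 20375 of 20665. Genes named are Ino80, up to 4 moved members of each list with the largest shift, the leading regions, and up to 12 genes with shifts of 2 classes or more; members and lists were chosen with earlier results of these data known. The loop list of Brg1KD was not used.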

Additional observations from a re-analysis of the deposited data

Results flagged for a closer look

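Over all placed genes the mean shift in Ino80KD was -0.0245 classes in batch 1 and -0.0246 in batch 2. In 4 gene lists both batches of Ino80KD moved one way on average and both batches of Brg1KD the opposite way; this difference was not tested, and both knockdowns share their controls. For keratins the mean shift in classes was -0.0962 and -0.173 in Ino80KD and 0.212 and 0.221 in Brg1KD. A large part of the Ino80KD means comes from 1 bin, that of Krt17 and Krt42, at -4.5 classes for 2 of 104 genes and 0 in 100 kb bins. For primitive endoderm genes it was 0.154 and 0.231 in Ino80KD and -0.154 and -0.385 in Brg1KD. The Ino80KD means rest largely on Pdgfra, 1 of the 13 genes, with 2.5 classes on average, so they do not describe the list as a whole. For zinc-finger Zfp genes it was -0.0201 and -0.00573 in Ino80KD and 0.0831 and 0.155 in Brg1KD, so the Ino80KD values lay closer to 0 than those of all genes. For DNA replication and repair genes it was 0.0476 in both batches of Ino80KD and -0.0476 in both of Brg1KD, which equals 1 class in 1 of its 21 genes. Groups of 2 libraries are too small to look for a library that stands apart.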

How the results depend on the processing

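The A share difference kept its sign under every alternative run, between -0.768 and -1.12 points, and leaving out a library gave -0.974 to -1.12. Leaving out a library could not change the sign, because the groups did not overlap. With the replicate block the difference was -1.05, the same mean by construction. The block gave 1679 bins by limma and 3452 bins that moved the same way in both batches.

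In 100 kb bins the numbers are smaller because there are 23919 bins, and the shares were 3.24% by limma, 6.23% without overlap, 0.648% from A to B and 0.155% from B to A. Bins called by limma numbered 2468 with the control and Ino80KD libraries only, 326 with a common variance, 776 in 100 kb bins and 3898 to 4707 without 1 library. Bins without overlap numbered 1489 in 100 kb bins, 1920 without bins at segment borders and 7171 to 8705 without 1 library, where fewer libraries must differ. Their share towards B was 60.9% to 68.3% without 1 library and 73.2% without border bins. A to B crossings numbered 155 in 100 kb bins and 556 to 678 without 1 library. B to A crossings numbered 37 in 100 kb bins, 31 away from control A/B borders and 215 to 351 without 1 library. Genes in A to B crossings numbered 193 to 213 without 1 library, and genes in B to A crossings 110 to 149, or 27 without the leading region on chromosome 4. The direction repeated in 61.8% of bins without border bins. Segment length differed by 3.05 kb as a mean and by -25 kb as a median of A or of B domains, and the mean of A domains by -30.9 to -53.3 kb without 1 library. Control loops found in Ino80KD were 46.4% at identical anchors and 77.5% within 20 kb.

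The 51 named genes were run under 5 alternatives each, and 237 of 255 values kept direction and call. Genes other than Ino80 were named because both Ino80KD libraries lay beyond both controls. Leaving out a library therefore could not change their direction or call. Only 100 kb bins could, and there 9 of the 51 lost the call and 9 reversed. Those reversed were Dusp23 and Fcrl6 (1), Frg1, Olfr1339, Olfr1340 and Olfr1341 (-0.5), Ighmbp2 and Mrpl21 (-1.5) and Sox1 (-1). A 100 kb bin takes the lower label of its parts. The exact tests cannot pass 0.05 with 2 libraries a group. The settings without chromosomes 5 and 19 or the chromosome 4 region, and genes placed by the start of transcription (57 and 34), were chosen after seeing the data.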
